A study of Mus musculus with 21 samples.

Results

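The receptor Cxcr4 and the chemokine ligands Cxcl12, Cxcl14, Cxcl1 and Ccl2 were followed in single cells of mouse back skin at embryonic day 15 (E15.0), when dermal fibroblasts gather into the dermal condensates of the first hair follicles. These 5 genes were chosen by symbol from the 20284 gene rows of a table of single-cell counts, to set the cells that carry the receptor beside those that carry the ligands. They are 5 of 57 chemokine ligand and receptor genes that have a row. All cells came from CD1 embryos without any treatment or mutation named in the labels. Live cells of dissociated dorsal skin were sorted by flow cytometry into wells, and RNA was counted as unique molecular identifiers (UMIs), random tags that mark each captured molecule once. The well names gave 4 populations of cells, namely 1371 wells of fibroblasts (Fb) and 149 wells named DC0, 152 named DC1 and 151 named DC2, where DC stands for dermal condensate. A further 16 wells in each library were named for spike-in RNA.

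Chemokines are small secreted proteins that steer moving cells by binding to receptors coupled to G proteins. Cxcl12 is the ligand of Cxcr4, and it is also bound and removed by the atypical receptor Ackr3, listed in the table under its older name Cxcr7. Cxcl14 is a chemokine of skin and other epithelia that has been described to bind Cxcr4. Cxcl1 recruits neutrophils through Cxcr2, and Ccl2 recruits monocytes through Ccr2, which makes them a pair of inflammatory chemokines within the group. Dermal condensates form by migration of fibroblasts, and Cxcr4 is known as a gene of condensate cells.

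The 9 libraries held between 1436924 and 6414137 UMIs in wells named for cells. Libraries 1 to 7 contained all 4 populations, library 8 contained DC0 and DC2 wells, and library 9 contained DC1 wells. Each of libraries 1 to 6 held at least 10 condensate wells, but only 2 to 8 wells of a single stage, so that a stage there rests on few cells. The median well held 18509 UMIs for fibroblasts, 12773 for DC0, 10469 for DC1 and 8333 for DC2. Neither the meaning of DC0 nor the surface proteins used for sorting are given in the labels. The series text speaks of clustering the cells into stages, and the labels do not say whether the names of wells follow a sort or those clusters. Differences between populations in the members may therefore partly have been used to name the wells, and whether Cxcr4 protein was part of a sort is not given in the sources used here. The labels do not say which plates came from separate litters, so a p-value here stands for the spread over plates, which may be technical. The 8 fibroblast markers were summed at 44573 to 55252 CPM (UMIs of the genes per 1000000 UMIs) in fibroblast wells and at 8677 to 24869 CPM in the condensate stages. The 10 condensate markers were summed at 327 to 402 CPM in fibroblast wells and at 1751 to 7641 CPM in the condensate stages.

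The start sites of the receptor, of its ligand and of Cxcl1 are shown because the receptor and these ligands lay at opposite ends of the comparison below. The sequences are the 250 bases before the annotated start on the strand of the gene, from RefSeq with build GRCm38.p6, and capitals mark a match to a motif. Cxcr4 lies on the minus strand of chromosome 1, and its promoter window is chr1:128592300-128592549. The capitals in it are a TATA box (letters TATAAA, matched on both strands and overlapping). Cxcl12 lies on the plus strand of chromosome 6, with the window chr6:117168285-117168534, and the capitals are a TCF/LEF motif (ATCAAAG). Cxcl1 lies on the plus strand of chromosome 5, with the window chr5:90890995-90891244, and the capitals are an NF-kappaB core motif (GGANTTTCC).
Cxcr4: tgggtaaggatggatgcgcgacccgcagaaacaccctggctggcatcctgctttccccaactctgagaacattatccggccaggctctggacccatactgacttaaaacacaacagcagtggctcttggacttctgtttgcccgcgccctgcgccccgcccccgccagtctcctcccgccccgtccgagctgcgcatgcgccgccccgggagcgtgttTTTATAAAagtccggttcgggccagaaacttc
Cxcl12: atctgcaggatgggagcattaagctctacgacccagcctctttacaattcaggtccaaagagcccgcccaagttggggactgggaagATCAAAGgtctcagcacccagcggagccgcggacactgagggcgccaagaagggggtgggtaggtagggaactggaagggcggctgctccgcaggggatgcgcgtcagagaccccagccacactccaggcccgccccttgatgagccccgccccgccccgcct
Cxcl1: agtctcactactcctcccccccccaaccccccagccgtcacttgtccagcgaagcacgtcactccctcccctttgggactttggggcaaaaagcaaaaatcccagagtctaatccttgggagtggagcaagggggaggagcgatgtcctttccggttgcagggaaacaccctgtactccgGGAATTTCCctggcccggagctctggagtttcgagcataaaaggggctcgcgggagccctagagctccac
The TATA box motif was found in 12.3% of 32536 mouse promoter windows of this kind, the TCF/LEF motif in 3.21% and the NF-kappaB core in 1.07%, each searched on both strands. GC boxes (GGGCGG), held by 33.0% of windows, were found 3 times before Cxcr4 and 5 times before Cxcl12. Cxcl1 also held 1 hypoxia response element core (ACGTG, 16.7% of windows). These are matches of letters and not measured binding sites. Cxcl14 lies on the minus strand of chromosome 13 (56288643 to 56296811) and Ccl2 on chromosome 11 (82035577 to 82037452). The window of Cxcl14, which is not shown, was searched as well and held none of the motifs named here. For Ccl2 no promoter window was at hand.

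The first comparison set all condensate wells against fibroblast wells of the same library, in libraries 1 to 6, where both groups filled 10 wells or more. Cxcr4 was higher in condensate cells in 6 of 6 libraries, and Cxcl12, Cxcl14, Cxcl1 and Ccl2 were each lower in 6 of 6. Levels in CPM were taken from the sum over all wells of a group in a library. No division by transcript length was made, since each molecule is counted once by a tag at its 3′ end. Across the 9640 genes tested with edgeR (quasi-likelihood test, library as a block, Benjamini-Hochberg adjustment at 0.05), 10.4% were called higher and 13.2% lower in condensate cells. The median change of all genes tested was -0.03 on the log2 scale. Genes entered the test after a filter on low counts. A gene scarce in 1 group can pass it through the other group alone. Such a gene can hardly be called higher in the group where it is scarce. In sums over wells, fewer cells that carry a transcript and less of it per cell cannot be told apart.

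Cxcr4 stood at 66.5, 229, 158, 326, 126.1 and 149 CPM in the condensate cells of libraries 1 to 6. In the fibroblast wells of the same libraries it stood at 4.46, 1.26, 2.53, 8.01, 2.49 and 1.76 CPM. The lowest condensate value lay above the highest fibroblast value, so the groups did not overlap. The means were 176 ± 90.5 CPM and 3.42 ± 2.50 CPM (SD, n = 6 libraries). The change was 5.60 (log2, standard error 0.307, edgeR adjusted p = 3.67e-18). Over all wells summed, the level was 51.9-fold higher in condensate cells, with a 95% interval of 39.9 to 68 that covers counting error only.

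Cxcl12, the ligand of Cxcr4, ranged from 5.25 to 22.3 CPM in condensate cells with a median of 12.5, and from 160 to 214.3 CPM in fibroblast wells with a median of 184. The condensate values rest on 12 UMIs, beside 4891 in fibroblast wells. The change was -4.14 (log2, standard error 0.291, edgeR adjusted p = 7.25e-15). The summed level was 17.3-fold lower in condensate cells (95% counting interval 9.89 to 33.5). The receptor and its ligand thus had their high levels in different populations, with no library in which either order was turned.

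Cxcl14 was the most abundant ligand in both populations. It ranged from 51.9 to 141 CPM in condensate cells (median 67.1, 104 UMIs) and from 338 to 571 CPM in fibroblast wells (median 489, 13386 UMIs). The change was -2.60 (log2, standard error 0.177, edgeR adjusted p = 3.06e-15), and the summed level was 5.46-fold lower (95% counting interval 4.50 to 6.69).

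Cxcl1 ranged from 0 to 52.8 CPM in condensate cells (median 12.7, 15 UMIs) and from 164 to 256.7 CPM in fibroblast wells (median 222.4, 6030 UMIs). The change was -4.14 (log2, standard error 0.295, edgeR adjusted p = 1.06e-14), and the summed level was 17.1-fold lower (95% counting interval 10.3 to 30.5). Library 2 held the highest condensate value, and library 1 held no UMI of Cxcl1 in condensate cells. For Cxcl14 and Cxcl1 the groups did not overlap.

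Ccl2 was the scarcest ligand of the group. Condensate cells held 6 of its UMIs, 4 of them in library 3, and 3 of 6 libraries held none. Their levels ranged from 0 to 15 CPM, below the 19.9 to 56.1 CPM of fibroblast wells, where 1004 UMIs were counted. The change was -2.84 (log2, standard error 0.523, edgeR adjusted p = 4.63e-05), and the summed level was 7.10-fold lower (95% counting interval 3.25 to 19.4).

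Libraries 3, 5, 6 and 7 shared a flow cell according to their descriptions. The description of library 7 carries another plate number than its title, so its place in that run is uncertain. It did not enter this first comparison, which was repeated within the run (libraries 3, 5 and 6) and within the other libraries, but it does enter the shared-run values of the stages and the scored wells given further on. The change of Cxcr4 was 5.85 within the shared run and 5.22 within the others, and that of Cxcl12 was -4.53 and -3.56. Cxcl14 changed by -2.67 and -2.53, and Cxcl1 by -4.42 and -3.62. Ccl2 changed by -2.37 in the shared run. In the other libraries no condensate UMI of Ccl2 was counted, and its fitted change of -9.04 is then no measure of size. All 10 of these changes passed the test.

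**Figure D1:**
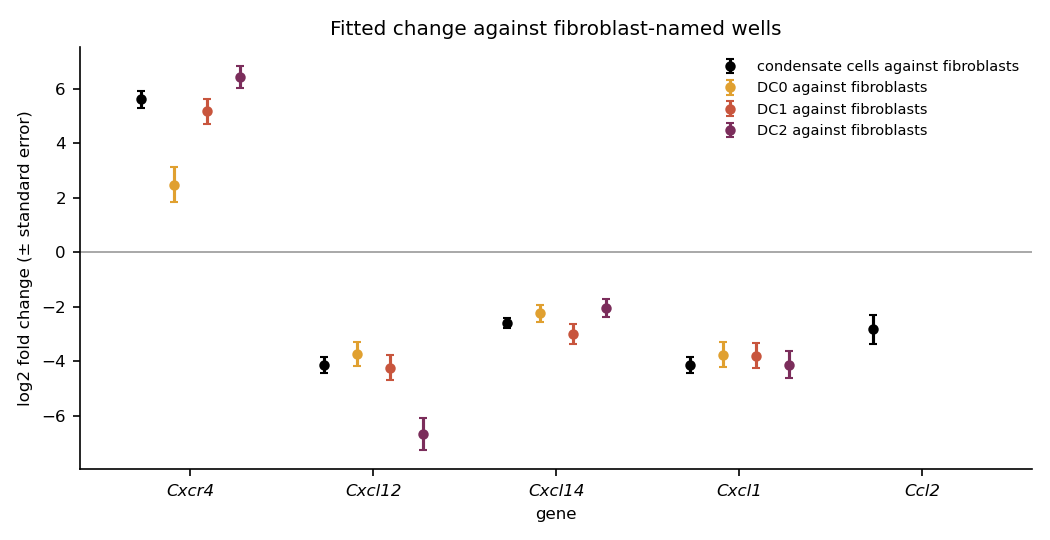
Fitted log2 fold change against fibroblast-named wells (y axis, with the standard error as bars) for each gene (x axis), with all condensate wells in black and the single stages in colour. Cxcr4 lies above 0 in each comparison and the 4 ligands below it; Ccl2 was too scarce for the stage fit and has the black point only.

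Ackr3 (Cxcr7), the receptor that removes Cxcl12, had the opposite direction to Cxcr4. It was counted 4 times in condensate cells (5.56 ± 8.66 CPM) and 428 times in fibroblast wells (18 ± 8.36 CPM, SD, n = 6 libraries). The change was -2.14 (log2, standard error 0.674, edgeR adjusted p = 0.0162), with the lower level in condensate cells in 5 of 6 libraries and ranges that overlapped. The call was lost without library 5 (adjusted p = 0.0707), without library 6 (adjusted p = 0.0648) and within the libraries outside the shared run (adjusted p = 0.482). It held within the shared run (-3.39, adjusted p = 0.0288).

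The 3 condensate stages were then compared with fibroblasts and with each other in a single fit of libraries 1 to 8, with 30 sums of at least 2 wells and 2069 genes tested. In libraries 1 to 7 Cxcr4 stood at 3.79 ± 2.49 CPM in fibroblast wells, 5.81 ± 10.3 in DC0, 155.5 ± 110 in DC1 and 401 ± 299 in DC2 (SD, n = 7 libraries). The order of the means was thus fibroblasts, DC0, DC1, DC2. By median, however, DC0 (0 CPM) lay below fibroblasts (2.53 CPM). Neighbours in this order are compared below.

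In DC0 wells Cxcr4 was at 0 in 5 of libraries 1 to 7, at 15.7 CPM in library 5 and at 25 CPM in library 6. Only 25 wells and 4 UMIs stand behind these values. The DC0 wells of library 8 gave 58.3 CPM from 86 UMIs. The fit called Cxcr4 higher in DC0 than in fibroblasts (2.47, standard error 0.638, edgeR adjusted p = 0.00307), beside 11.7% of genes called higher. However, DC0 exceeded the fibroblast wells of its own library in 2 of 7 libraries. Without library 8 the change was 1.20 (adjusted p = 0.460), and within the shared run it was 1.72 (adjusted p = 0.326) and within the others 2.45 (adjusted p = 0.0692). The difference between DC0 and fibroblasts therefore rests on library 8, which holds no fibroblast wells of its own.

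In DC1 wells Cxcr4 ranged from 61.4 to 398 CPM in libraries 1 to 7 with a median of 135, and library 9 gave 214.3 CPM. DC1 exceeded fibroblasts in 7 of 7 libraries without overlap (5.16, standard error 0.453, edgeR adjusted p = 2.21e-11, with 16.2% of genes called higher). DC1 also exceeded DC0 in 7 of 7 libraries without overlap among libraries 1 to 7. That change was 2.69 (log2, standard error 0.567, edgeR adjusted p = 0.00693), in a comparison that called 0.967% of genes higher and 0.193% lower. The call was kept when any single library was left out, with changes of 2.41 to 3.94. It was lost where fewer sums entered: the change was 1.58 (adjusted p = 0.865) with at least 5 wells per sum, 3.48 (adjusted p = 0.0980) within the shared run and 2.65 (adjusted p = 0.249) within the other libraries.

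In DC2 wells Cxcr4 ranged from 0 to 838 CPM in libraries 1 to 7 with a median of 312, and library 8 gave 447 CPM. The value of 0 came from library 1, whose 4 DC2 wells held 2855 UMIs in all. DC2 exceeded fibroblasts in 6 of 7 libraries (6.42, standard error 0.402, edgeR adjusted p = 5.01e-15, with 19.8% of genes called higher). DC2 exceeded DC0 in 7 of 8 libraries and tied at 0 in the other (3.95, standard error 0.458, edgeR adjusted p = 9.10e-08, with 8.41% of genes called higher and 9.18% lower). DC2 and DC1 did not differ at the threshold: the change was 1.26 (standard error 0.409, edgeR adjusted p = 0.0924), with DC2 higher in 5 of 7 libraries. In that comparison 1.16% of genes were called higher and 1.3% lower. It passed without library 2 (1.45, adjusted p = 0.0487) and without the library as a block (1.54, adjusted p = 0.0188). Within the shared run it was 1.43 (adjusted p = 0.204) and within the others 1.02 (adjusted p = 0.810). With DESeq2's size factors in place of edgeR's scaling, the share of higher genes among those called moved from 47.1% to 65.2% for DC2 against DC1 and from 47.8% to 59.9% for DC2 against DC0, while Cxcr4 changed by 1.35 and 4.03.

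**Figure D2:**
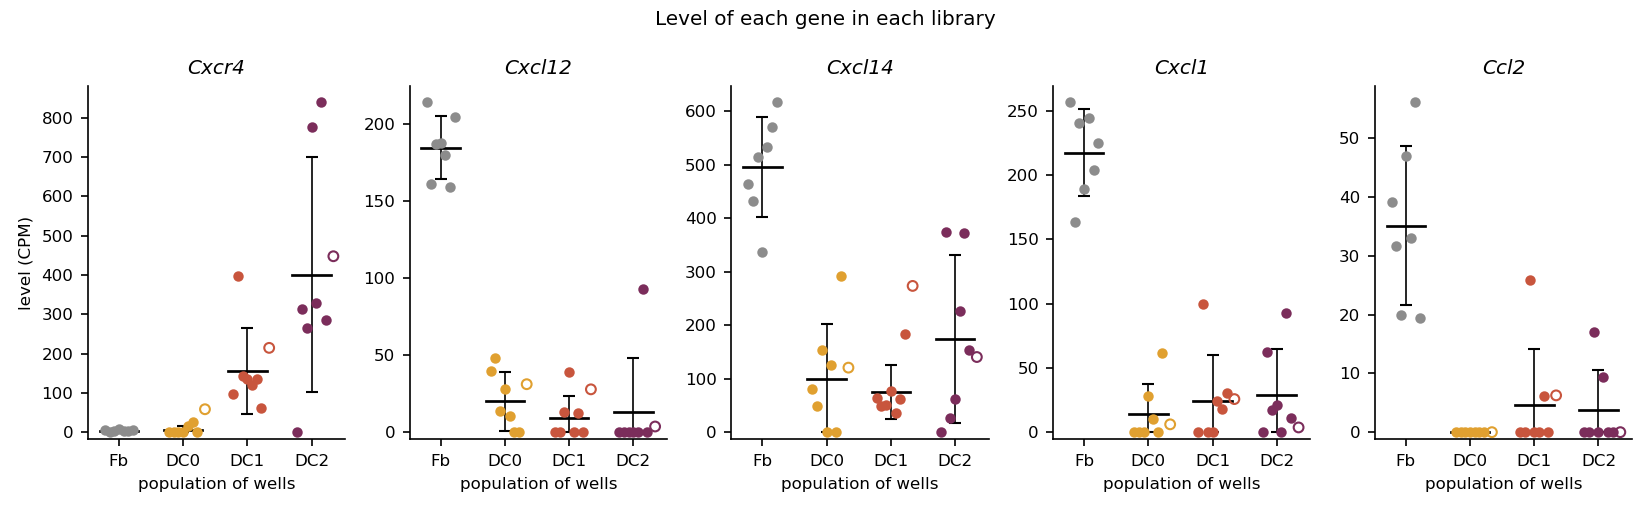
Level of each gene in CPM (y axis) by population of wells (x axis), with 1 filled point for each of libraries 1 to 7, open points for libraries 8 and 9, and the mean ± SD over libraries 1 to 7 as lines (lower bars end at 0). Cxcr4 is near 0 in fibroblast wells and at a median of 312 CPM in DC2, while the 4 ligands have their highest means in fibroblast wells.

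Cxcl12 was low in each of the 3 stages. Fibroblast wells of libraries 1 to 7 held 185 ± 20.4 CPM, DC0 20.1 ± 19.1, DC1 9.15 ± 14.4 and DC2 13.3 ± 35.2 CPM (SD, n = 7 libraries). The DC2 mean comes from 1 UMI in library 6 (93.1 CPM), and the other 6 libraries held none. Library 8 held 46 UMIs in its DC0 wells (31.2 CPM) and 5 UMIs in its DC2 wells (3.68 CPM). Library 9 held 40 UMIs in its DC1 wells (27.8 CPM). Each stage was lower than fibroblasts in 7 of 7 libraries: by -3.74 in DC0, -4.24 in DC1 and -6.68 in DC2 (edgeR adjusted p = 2.48e-08, 4.04e-09 and 1.28e-11). The share of genes called lower was 14.8% for DC0, 16.4% for DC1 and 25% for DC2.

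Between stages, Cxcl12 fell from DC0 to DC2 by 2.93 (log2, standard error 0.677, edgeR adjusted p = 0.00234), lower in 6 of 8 libraries. This call was lost without library 8 (-2.38, adjusted p = 0.279), within the shared run (-1.42, adjusted p = 0.694) and with DESeq2 (-1.77, adjusted p = 0.111). DC1 against DC0 (-0.50, adjusted p = 0.944) and DC2 against DC1 (-2.44, adjusted p = 0.245) did not pass.

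Cxcl14 kept a measurable level in all stages. It stood at 496 ± 93.2 CPM in fibroblast wells, 100.1 ± 103 in DC0, 74.9 ± 49.9 in DC1 and 174 ± 157 in DC2 (SD, n = 7 libraries). Library 8 gave 121 CPM in DC0 and 141 in DC2, and library 9 gave 273.5 CPM in DC1, above each DC1 value of libraries 1 to 7. The changes against fibroblasts were -2.25, -2.99 and -2.05 (edgeR adjusted p = 1.02e-06, 3.68e-08 and 6.15e-06), each with the lower level in 7 of 7 libraries. No pair of stages differed at the threshold: the changes were -0.74 for DC1 against DC0, 0.95 for DC2 against DC1 and 0.20 for DC2 against DC0 (edgeR adjusted p = 0.654, 0.323 and 0.768).

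Cxcl1 fell in all 3 stages against fibroblasts, from 218 ± 33.5 CPM to 14.3 ± 23.3 in DC0, 24.6 ± 35.3 in DC1 and 29.2 ± 35.2 in DC2 (SD, n = 7 libraries). The changes were -3.77, -3.81 and -4.13 (edgeR adjusted p = 3.40e-08, 2.37e-08 and 1.62e-08), lower in 7 of 7 libraries each. No pair of stages passed the test, with changes of -0.04, -0.32 and -0.36 (edgeR adjusted p = 0.997, 0.924 and 0.784). Ccl2 did not pass the filter on low counts in the stage fit. It was counted 1078 times in fibroblast wells, 12 times in DC1 wells and 3 times in DC2 wells. None of the 149 DC0 wells, most of them from library 8, held a Ccl2 UMI.

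The wells named for spike-ins give the background of the table, since they stand outside the populations of cells. Their median was 431 UMIs in all genes. They held 1 UMI of Cxcr4, 3 of Cxcl12, 57 of Cxcl14, 12 of Cxcl1 and 3 of Ccl2 over the 16 wells of each library. Per well this was 0.00694 for Cxcr4, beside 0.0780 in fibroblasts, 0.604 in DC0, 2.46 in DC1 and 4.97 in DC2. For Cxcl1 the spike-in wells held 0.0833 UMIs per well over all libraries (95% counting interval 0.0431 to 0.146), beside 0.107 in DC0, 0.296 in DC1 (0.216 to 0.396) and 0.0728 in DC2. Most DC0 and DC2 wells are from library 8, whose spike-in wells held no Cxcl1. In libraries 1 to 7 the spike-in wells held 0.0982 Cxcl1 UMIs per well (0.0490 to 0.176), DC0 0.28 (0.113 to 0.577), DC1 0.267 (0.115 to 0.525) and DC2 0.207 (0.0759 to 0.450), with intervals that overlap. Ccl2 in DC2 was at 0.0199 UMIs per well and at 0.0208 in spike-in wells over all libraries, and at 0.103 (0.0213 to 0.302) and 0.0268 (0.00552 to 0.0783) in libraries 1 to 7. Cxcl12 in DC2 (0.0397) was within counting error of the spike-in wells (0.0208). Cxcl14 was at 0.396 UMIs per spike-in well, against 1.58 in DC0, 2.80 in DC1 and 1.62 in DC2. In library 9 the spike-in wells held 1.12 Cxcl14 UMIs each and DC1 wells 3.22, so the high DC1 value of that library carries a high background.

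Shares of wells were compared after each well was thinned to 3000 UMIs, which removes differences in depth. This left out 216 fibroblast wells, 34 DC0, 13 DC1 and 64 DC2 wells with fewer UMIs. A Cxcr4 UMI was then found in 0.779% of fibroblast wells (9 of 1155), 8.70% of DC0 wells (10 of 115), 38.8% of DC1 wells (54 wells) and 67.8% of DC2 wells (59 of 87). The exact 95% binomial intervals were 0.357 to 1.47%, 4.25 to 15.4%, 30.7 to 47.5% and 56.9 to 77.4%. They do not overlap, but they cover counting error only, and all 10 DC0 wells with a Cxcr4 UMI belonged to library 8, which gave 94 of the 115. Before thinning, the shares were 5.54%, 32.9%, 74.3% and 64.9%, with DC1 above DC2. DC2 wells had the lowest median depth, and among the wells with at least 3000 UMIs the unthinned shares were 5.89%, 39.1%, 79.9% and 97.7%. The order of DC1 and DC2 thus turned where the shallow wells were left out.

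A Cxcl12 UMI was found in 33.4% of thinned fibroblast wells (386 of 1155), 7.83% of DC0, 5.76% of DC1 and 1.15% of DC2 wells. Cxcl14 was found in 68.7%, 20%, 46.0% and 26.4%, so that DC1 wells held it more often than the other 2 stages. Of the 64 DC1 wells with a Cxcl14 UMI, 59 came from library 9, whose background of Cxcl14 was high. Cxcl1 was found in 22.3% of fibroblast wells and in 2.61%, 5.04% and 3.45% of DC0, DC1 and DC2 wells. Ccl2 was found in 5.63% of fibroblast wells, in 0 of 115 DC0 wells, which allows a share of wells with a UMI of up to 2.61%, in 3 DC1 wells and in 1 of 87 DC2 wells.

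**Figure D3:**
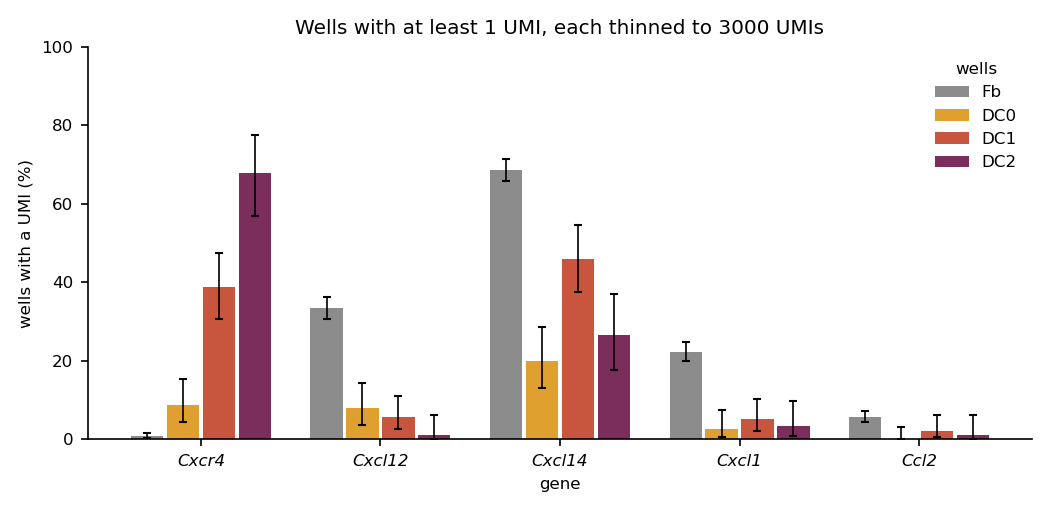
Percentage of wells with at least 1 UMI of each gene (y axis) after every well was thinned to 3000 UMIs, by gene (x axis) and population (colour), with exact 95% binomial intervals as bars. Cxcr4 runs from 0.779% of fibroblast wells to 67.8% of DC2 wells, and Cxcl12 from 33.4% down to 1.15%.

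Wells with UMIs of both receptor and ligand were counted beside the product of the shares of each. Among thinned fibroblast wells, 4 held UMIs of both Cxcr4 and Cxcl12, where the product of their shares within each library comes to 3.09 wells. In DC1 the count was 5 wells against a product of 3.14, and in DC0 it was 1 against 0.745. In DC2 no well held both, and the product came to 0.692. At this depth neither joint presence nor mutual absence within a well was detectable. Without thinning, 51 of 1371 fibroblast wells, 9 DC0, 19 DC1 and 3 DC2 wells held UMIs of both genes.

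**Figure D4:**
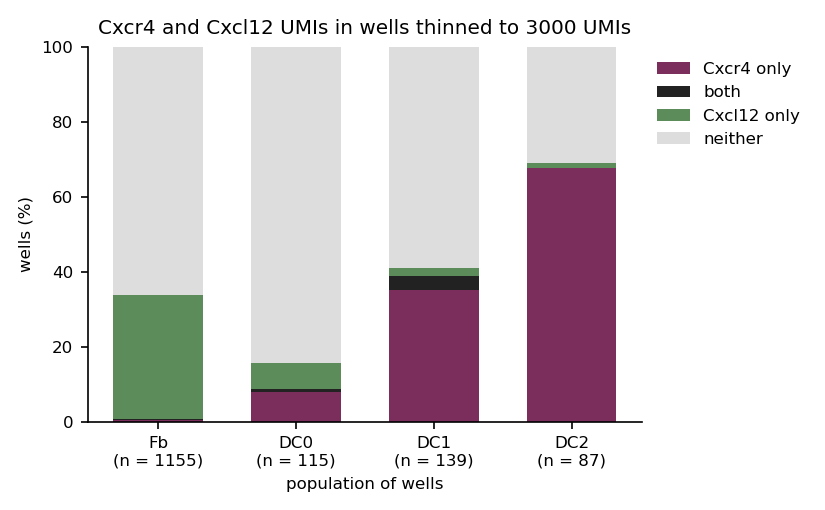
Percentage of wells (y axis) with UMIs of Cxcr4 only, Cxcl12 only, both or neither in each population (x axis, with the number of wells), each well thinned to 3000 UMIs. Wells with Cxcl12 only make up most of the positive wells among fibroblasts, and wells with Cxcr4 only most of those in DC1 and DC2.

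Among fibroblast wells the ligands differed in how evenly they were spread. Cxcl12 and Cxcl14 were more even than Cxcl1, with a variance over mean of 1.47 and 1.61 in thinned wells. Cxcl1 was concentrated, with a variance over mean of 3.74 (2.54 to 4.65 in single libraries), and its top 115 wells held 74.1% of its UMIs, against 50.3% for Cxcl12 and 32.8% for Cxcl14. Such a share also depends on the mean count, which was 0.545 UMIs per well for Cxcl1, 0.505 for Cxcl12 and 1.49 for Cxcl14. Ccl2 had a variance over mean of 3.54, which ranged from 1.18 to 6.83 between libraries. Cxcl1 and Ccl2 shared wells: 31 held both, where the product of shares within libraries was 14.3, and the count was above the product in 7 of 7 libraries. For Cxcl12 and Cxcl1 the count was 103 against 86.3, above the product in 5 of 7 libraries. The other pairs of ligands lay closer to their product, such as 273 against 265 for Cxcl12 and Cxcl14.

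Fibroblast wells with Cxcr4 were few. Before thinning, 76 of 1371 held a Cxcr4 UMI, 63 of them a single one, and the highest well held 11. The 13 wells with at least 2 were examined for markers of other cells. Condensate markers stood at 361 CPM in these wells and at 365 CPM in the 1295 wells with no Cxcr4 UMI. Endothelial markers stood at 29.0 against 16.7 CPM and markers of blood-derived immune cells, where Cxcr4 is also known to be expressed, at 35.2 against 23.2 CPM. Mural (336 against 258 CPM) and keratinocyte markers (201 against 168) were also higher. Melanocyte (22.8 against 74.9), muscle (33.2 against 44.4), Schwann (14.5 against 17.8) and erythroid markers (8.29 against 15.2) were lower. These values rest on 13 wells, and the differences were not tested. The median depth was 25905 UMIs in the wells with at least 2 and 17949 in those with none.

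The place of the cells in the dermis was not measured. Fibroblast wells of libraries 1 to 7 were instead ranked by a score of upper dermis genes minus lower dermis genes, 10 of each. The top and bottom 25% of wells within each library, 286 wells each and thinned to 3000 UMIs, were summed and compared. The score is a range and not a type of cell, and its own genes are not results. Of 5 tested genes in each of its lists, 1 went against the score. In the lower list this was Thy1, which was higher in upper-scored wells in 7 of 7 libraries (757 against 417 CPM). Of 2335 genes tested, 18.8% were higher and 21.5% lower in the upper-scored wells.

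Cxcl1 was the member with the largest change between these groups of wells. It stood at 0 to 38.8 CPM in upper-scored wells and at 197.5 to 581 CPM in lower-scored wells, without overlap, and was lower in 7 of 7 libraries. The change was -4.03 (log2, standard error 0.249, edgeR adjusted p = 2.60e-26), and it was -3.86 within the shared run and -4.36 within the other libraries. Cxcl12 was also lower in upper-scored wells in 7 of 7 libraries, at 38.5 to 143 CPM against 128 to 273.8 CPM with ranges that overlapped. Its change was -1.16 (log2, standard error 0.205, edgeR adjusted p = 1.38e-06), and -1.15 and -1.17 within the shared run and the others.

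Cxcl14 stood at 519 ± 179 CPM in upper-scored and 399 ± 95.5 CPM in lower-scored wells (SD, n = 7 libraries), higher in 6 of 7 libraries. The change of 0.21 (log2, standard error 0.124, edgeR adjusted p = 0.176) did not pass the test. Ccl2 was counted 17 times in upper-scored and 41 times in lower-scored wells, and 22 of the 41 came from library 6. It did not pass the filter on low counts there, and neither did Cxcr4, with 3 and 2 UMIs. Genes of the stress response to dissociation moved with this score: of 16 tested, 1 rose and 11 fell in upper-scored wells (median -0.47). Over all genes, 18.8% were higher and 21.5% lower (median 0.03). Their part in the differences of Cxcl1 and Cxcl12 was not tested.

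**Figure D5:**
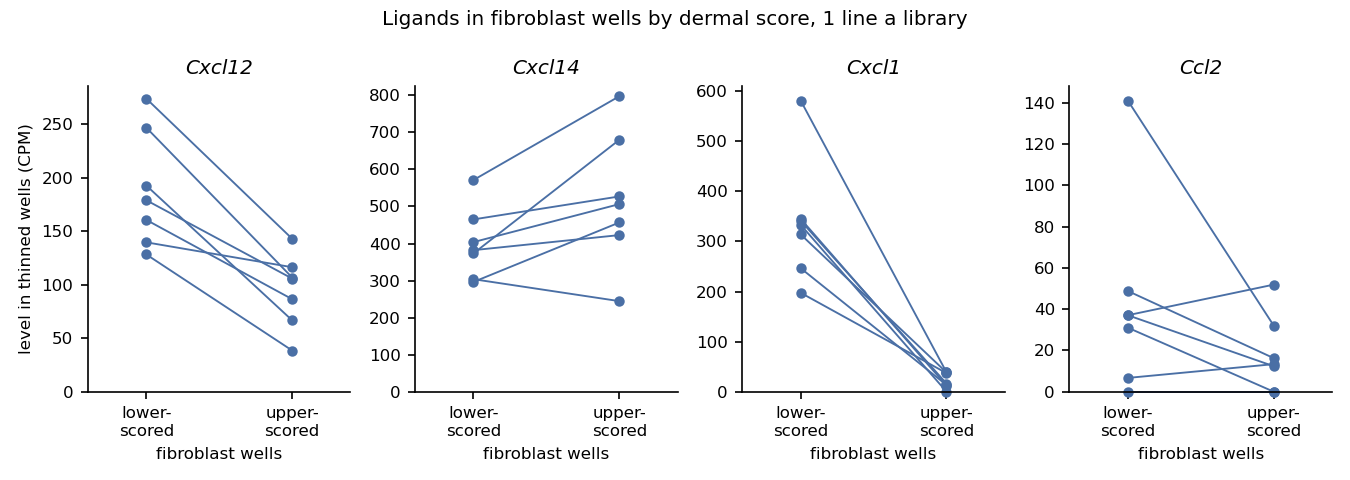
Level of the 4 ligands in CPM (y axis) in lower-scored and upper-scored fibroblast wells (x axis), thinned to 3000 UMIs, with 1 line for each of 7 libraries. The Cxcl1 lines fall to at most 38.8 CPM, the Cxcl12 lines all fall, and 6 of 7 Cxcl14 lines rise without passing the test.

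Chemokine genes beyond the 5 members were scarce in these wells. Of the 57 with a row, 29 were counted fewer than 20 times over all cell wells, 5 were not counted at all, and 8 passed the filter in the comparison of condensate cells with fibroblasts. The 4 ligands made up 93.4% of the 31431 ligand UMIs in fibroblast wells, with 50.05% from Cxcl14, 21.9% from Cxcl1, 18.04% from Cxcl12 and 3.43% from Ccl2. Cxcl2, a close relative of Cxcl1, was the fifth, with 623 UMIs. It fell in condensate cells to 1 UMI, beside 601 in the fibroblast wells of the 6 libraries, a ratio of 25.5 with a 95% counting interval of 4.56 to 1009 (-4.51, edgeR adjusted p = 8.66e-05). Cxcl1 and Cxcl2 are near copies in places, and how reads shared between them were assigned is not given in the sources used here. Of 2 chemokine receptors tested, Cxcr4 rose, and Cxcr2, the receptor of Cxcl1, did not pass the test (0.46, standard error 0.317, edgeR adjusted p = 0.329), with 668 UMIs in fibroblast wells and 292 in the 3 stages. Cxcr2 falls outside the rule for named genes and was chosen after its values were seen.

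The Cxcr4 signalling list covers G protein subunits, receptor kinases, regulators and effectors of migration. Of its 39 genes tested, 7 rose and 5 fell in condensate cells (median change 0.08), beside 10.4% higher and 13.2% lower over all genes (median -0.03), so the falls lie near the share of all genes. Rgs16, which speeds the shut-off of G alpha subunits, rose by 3.21 (standard error 0.356) from 8.66 to 98.7 CPM. Pik3r1, the regulatory subunit of phosphoinositide 3-kinase, rose by 1.70 (standard error 0.144), and Jak2, a tyrosine kinase, by 1.31 (standard error 0.225). Gng2, a G protein gamma subunit, rose by 1.28 (standard error 0.187), and Adrbk2, a kinase that desensitises G protein coupled receptors, by 0.93 (standard error 0.197). The edgeR adjusted p-values of these 5 ranged from 1.56e-12 for Pik3r1 to 0.000333 for Adrbk2. The call was lost in the libraries outside the shared run for Jak2 (edgeR adjusted p = 0.0680) and Adrbk2 (0.0532), and with wells thinned to 3000 UMIs for Adrbk2 (0.24, edgeR adjusted p = 0.812). The 5 that fell were Elmo1 (-1.18) and Dock1 (-0.92), partners in Rac activation, Gnai1 (-0.89), an inhibitory G alpha subunit, the kinase Akt2 (-0.62) and Gng5 (-0.48). The falls were smaller than the rises named here in all but Elmo1. The calls of Elmo1, Gnai1, Akt2 and Gng5 were each lost when single libraries were left out: without library 3 for Akt2 (adjusted p = 0.0589), Gnai1 (0.0526) and Gng5 (0.139), and without library 6 for Elmo1 (0.139), Gnai1 (0.0994) and Gng5 (0.0696), among others.

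Genes listed around the binding and cutting of Cxcl12, including enzymes that modify heparan chains and Mif, changed in both directions. Of 15 genes tested 5 were higher and 3 lower (median -0.18), beside 10.4% and 13.2% of all genes. Sdc1, a heparan sulfate proteoglycan of the cell surface, rose by 2.03 (standard error 0.147) from 106.9 to 491 CPM. Ndst1, an enzyme that sulfates heparan chains, rose by 1.38 (standard error 0.176), Gpc1 by 0.98, Hs6st1 by 0.64 and the membrane protease Mmp14 by 0.51. Sdc2 fell by 0.87, Gpc3 by 0.70 and Mif, a cytokine that also binds Cxcr4, by 0.61. The call was lost without library 3 for Gpc1 (adjusted p = 0.172) and Mmp14 (0.0616), without library 4 for Gpc1 (0.145), without library 1 for Hs6st1 (0.0591), and without library 6 for Hs6st1 (0.165) and Sdc2 (0.0819), all with edgeR. In the libraries outside the shared run, Sdc1, Ndst1 and Gpc3 kept their calls and the other 5 lost them.

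Genes of the NF-kappaB and inflammatory response, the pathway known to induce Cxcl1 and Ccl2, were also counted: 14 of 25 tested fell in condensate cells and 0 rose (median -1.09), beside 13.2% lower and 10.4% higher over all genes (median -0.03). Cxcl2 is among the 14, and without it 13 of 24 fell and 0 rose (median -1.03). With DESeq2 the counts were also 14 and 0, and at an unadjusted p under 0.05 edgeR gave 19 lower and 0 higher. Vcam1, an adhesion molecule, fell by 2.74 (standard error 0.187, edgeR adjusted p = 3.26e-15) from 397 to 59.3 CPM. Csf1, a growth factor of macrophages, was counted 1 time in condensate cells and 1178 times in fibroblast wells, a ratio of 49.98 (95% counting interval 8.95 to 1976). For Il1r1, the interleukin 1 receptor, the counts were 1 and 537 (ratio 22.8, 4.07 to 902), and for Ptgs2, a prostaglandin synthase, 3 and 503 (ratio 7.11, 2.42 to 34.6). Csf1, Il1r1, Ptgs2 and Cxcl2 passed the filter on low counts through their fibroblast sums and could hardly be called higher. The count of 0 rises is therefore partly set by the filter. The calls of Cxcl2 and Ptgs2 were lost in the libraries outside the shared run (edgeR adjusted p = 0.257 and 0.308). In upper-scored fibroblast wells, where Cxcl1 was low, 5 of 8 tested members of the list fell and 3 rose. Over all genes, 21.5% were lower and 18.8% higher there. Vcam1 was among the 3 members that rose (0.50, edgeR adjusted p = 0.00139).

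Signs of stress from dissociation also differed between condensate cells and fibroblasts. Of 21 genes tested, 7 fell and 2 rose (median -0.26), beside 13.2% lower and 10.4% higher over all genes. Klf2 (-3.43), Btg2 (-1.17), Fosb (-1.15), Junb (-1.10) and Nr4a1 (-1.06) fell, while Klf4 (1.12) and Klf6 (0.31) rose, and the call of Klf6 was lost without library 3, 4, 5 or 6 (edgeR adjusted p = 0.0873, 0.0875, 0.134 and 0.162). Outside the shared run the call of Nr4a1 was lost (edgeR adjusted p = 0.0839). The part of these genes in the fall of Cxcl1 and Ccl2 was not tested.

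Lists of upper and lower dermis genes were counted in the same comparison, beside 10.4% higher and 13.2% lower over all genes. Of 9 upper dermis genes tested 5 rose and 0 fell with edgeR (median 0.64), as with DESeq2 and at an unadjusted p under 0.05, among them Prdm1 (4.66), which is also a condensate marker, Cyp26b1 (2.86), an enzyme that clears retinoic acid, and Lef1 (2.31), a transcription factor of Wnt signalling. Nkd1 rose by 1.19 and Twist2 by 0.49. The call of Twist2 was lost within the shared run (0.31, edgeR adjusted p = 0.0615), within the other libraries (0.60, edgeR adjusted p = 0.0641) and with thinned wells (0.15, edgeR adjusted p = 0.580). By stage, 4 of 6 upper dermis genes tested were higher and 2 lower in DC2 than in fibroblasts, beside 19.8% and 25% of all genes. In DC2 against DC1 3 were lower and 0 higher, beside 1.3% lower and 1.16% higher over all genes. Of 7 lower dermis genes 6 fell and 1 rose (median -2.98): Dpt fell by 4.83, Igf2 fell by 2.98 and Mest by 2.95, and Thy1 rose by 0.97. Mfap5 and Pparg rest on 3 and 2 UMIs in condensate cells, beside 943 and 569 in fibroblast wells, with ratios of 13.3 (95% counting interval 4.55 to 64.8) and 12.1 (3.33 to 99.9). Both passed the filter on low counts through their fibroblast sums and could hardly be called higher.

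Of 6 markers of mural cells tested, 3 fell in condensate cells with edgeR and with DESeq2 (median -1.0): Acta2 (-2.13), Kcnj8 (-2.78) and Abcc9 (-2.94). Over all genes, edgeR called 13.2% lower and 10.4% higher (median -0.03). The other 3 were Cspg4 (0.13), Pdgfrb (0.41) and Tagln (0.63), which did not pass. Summed, the 7 mural markers stood at 232.4 to 273 CPM in fibroblast wells and had medians of 226, 160.9 and 229 CPM in DC0, DC1 and DC2 (0 to 561 CPM in single libraries), with Rgs5 at 0 in DC0. Their part in the fall of the ligands was not tested. Markers of endothelial and blood-derived immune cells did not pass the filter on low counts in condensate or fibroblast sums. In condensate stages the 8 endothelial markers together had medians of 10.3 CPM in DC0, 20.9 in DC1 and 54.2 in DC2, with values from 0 to 350 CPM in single libraries, and 17.7 CPM in fibroblast wells. The 8 immune markers had medians of 14.7, 5.84 and 21.4 CPM in the stages (0 to 125 CPM) and 25.6 CPM in fibroblast wells. Lyz2 was at 0 in all 3 stages, and in DC1 so were Tyrobp, Fcer1g and Laptm5. The 350 CPM of endothelial markers came from library 1 DC2, where 1 UMI is worth that much and Cxcr4 was at 0.

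The genes whose levels were most like that of Cxcr4 over the 30 sums were Lrrc15 (Pearson r 0.90), Adamts15 (0.89), Igfbp4 (0.86), Adamts20 (0.86) and Cald1 (0.86), on log2(CPM + 20) among 2069 genes. These sums share libraries and differ in depth, so the values describe likeness only. Lrrc15 had a mean of 3.14 CPM in fibroblast wells, 0.746 in DC0, 84.5 in DC1 and 341 in DC2, the same order of DC0, DC1 and DC2 as Cxcr4. Adamts15 had 16.3, 2.95, 127 and 336 CPM, and Igfbp4, which was already abundant in fibroblasts, 423, 736, 1593 and 2136 CPM. For Cxcl12 the most like genes were Ogn (0.92), Dpt (0.91), Col1a2 (0.88), Col3a1 (0.85) and Mest (0.84). Ogn had 187 CPM in fibroblast wells, 12.4 in DC0, 0 in DC1 and 16.0 in DC2, and Col1a2, a collagen of fibroblasts, 17714, 4039, 3182 and 4019 CPM. The correlation of Cxcr4 with Cxcl12 over the same sums was -0.51.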

How the data were processed

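The authors deposited a table of expected counts for 1967 wells of 9 SORT-seq libraries (an automated CEL-Seq2, per the labels' protocols): per gene and well, the UMIs corrected for collisions among 4096 tags, as read from the values (0 of 7480233 values above 0 were more than 0.005 off that formula). Per the submitters' processing notes, BWA 0.6.2-r126, Cufflinks 2.1.1, Bowtie2 and TopHat2 2.0.3 were used with mm10, in roles not given there. Rounding to whole numbers altered 13.5% of values above 0. The planned design had assumed whole counts. Rows of 86 spike-ins were left out. The well names carry library, population and a well number but no barcode sequence, and no 2 wells held identical values. The 12 bulk samples were not analysed here.

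Within a library, the wells of each population were added up, and these sums were tested with edgeR 4.0.16 (glmQLFit, TMM, filterByExpr, library as a block). The standard error given with an edgeR change is the size of the change divided by the square root of its F value. It was derived from the test and adds nothing to it. Samples of a library share a plate: deviations of condensate and fibroblast sums correlated at 0.0816 to 0.223, and 6 of 6 libraries matched their own best. Other tools were R 4.3.3, DESeq2 1.42.0, limma 3.58.1, matplotlib 3.10.9, scipy 1.17.1, pandas 2.3.3, numpy 2.4.6 and Python 3.11.15. The procedure was run on simulated counts in which libraries differed in depth only, so that run does not cover differences between plates. No doublet caller was run, since cells were sorted into wells.

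The members, 10 gene lists and 10 marker lists were chosen with earlier results of these data known. Besides the members and Ackr3, the genes named are the up to 5 largest rises and 5 largest falls per list with an adjusted p under 0.05 and a mean log2 CPM of at least 4, and the 5 genes most like Cxcr4 and Cxcl12. Intervals and the limit for a count of 0 (3 UMIs) are at 95% and cover counting error only. Alternatives were DESeq2, its size factors, no filter, no block, thinned wells, at least 5 wells per sum, single runs and each library left out. Adding library 9 without a block was chosen after seeing the data. Gene positions and promoters came from RefSeq.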

Additional observations from a re-analysis of the deposited data

Results flagged for a closer look

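Among 34 groups of libraries examined for a single value far from the rest, 10 held one. The limit used assumes normally spread values of equal precision, while many of these levels rest on few UMIs and differ in depth. How many groups would be flagged by chance is therefore not known. Cxcr4 stood at 58.3 CPM in DC0 wells of library 8 against at most 25 CPM in the other libraries, and at 398 CPM in DC1 wells of library 2 against at most 214.3 CPM. Cxcl12 stood at 93.1 CPM in DC2 wells of library 6, which is 1 UMI among 10736. Cxcl1 stood at 61.6 CPM in DC0 wells of library 7 and at 99.4 CPM in DC1 wells of library 2. With all condensate wells summed, Cxcl1 stood apart in library 2 (52.8 CPM) and Ccl2 in library 3 (15 CPM), and Ccl2 also in DC1 wells of library 3 (25.8 CPM). Among lower-scored fibroblast wells, Cxcl1 was at 581 CPM in library 3 and Ccl2 at 141 CPM in library 6. The wells named for spike-ins, which entered no comparison, held 57 UMIs of Cxcl14 and 12 of Cxcl1.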

How the results depend on the processing

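The changes of the 5 members in condensate cells against fibroblasts kept their direction and their side of the threshold under each alternative that gave a value. Ccl2 gave none with thinned wells, and no member passed the filter with thinned wells in the stage fit, nor did Cxcl12 and Cxcl1 there in the libraries outside the shared run. Among the stages, Cxcr4 in DC1 against DC0 fell below the threshold with at least 5 wells per sum (1.58), in the other libraries (2.65) and in the shared run (3.48). In DC2 against DC1 it passed without the replicate block (1.54), with library 9 added (1.29) and without library 2 (range of left-out libraries 1.00 to 1.45). Cxcl12 in DC2 against DC0 was lost with DESeq2 (-1.77), in the shared run (-1.42) and without library 8 (range -3.31 to -2.38). The cause was not tested.

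Changes that turned sign had none of them passed the test. Cxcl12 in DC1 against DC0 was 0.52 with at least 5 wells and 0.061 in the shared run. Cxcl14 in DC1 against DC0 was 0.10 with library 9 and 0.11 in the other libraries, and in DC2 against DC0 -0.037 with at least 5 wells and -0.13 in the shared run. Cxcl1 in DC1 against DC0 was 0.010 with DESeq2, 0.11 with at least 5 wells, 1.28 with library 9, 0.87 without the replicate block, 0.072 in the shared run and -0.55 to 0.46 with single libraries left out. With DESeq2 Cxcl1 was 0.067 in DC2 against DC1 and 0.078 in DC2 against DC0, and leaving out libraries gave -0.62 to 0.34 and -0.58 to 0.054.

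The number of genes called varied more. For condensate cells against fibroblasts it was 2276, with 1035 in the other libraries and 621 with thinned wells. Without the filter it was 1577 for DC0, 1683 for DC1 and 2935 for DC2 against fibroblasts (549, 675 and 927 as reported), 50 for DC1 against DC0 (24), 114 for DC2 against DC1 (51) and 744 for DC2 against DC0 (364). In the other libraries these were 207, 207, 277, 3, 0 and 48, where the 0 stands beside 99 genes at an unadjusted p under 0.05 with edgeR and 71 called by DESeq2 over all libraries. With thinned wells, where 283 genes were tested, they were 85, 91, 116, 9, 18 and 75. Within the shared run DC1 against DC0 gave 2, DC2 against DC1 16 and DC2 against DC0 150. At least 5 wells per sum gave 2 and 6 for the adjacent stages, and library 9 gave 59 for DC1 against DC0. Leaving out single libraries gave 18 to 54 for DC2 against DC1 and 200 to 413 for DC2 against DC0. The scored wells gave 594 genes in the other libraries, beside 941. Of the other named genes, 71 of 579 alternative values fell below the threshold and none turned sign. Each stage rests on 2 to 8 wells in libraries 1 to 7.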

Other observations

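Several chemokines outside the 5 members were counted mostly in fibroblast wells. Cxcl5, a further ligand of Cxcr2, had 250 UMIs in fibroblast wells and none in the 3 condensate stages, and Ccl7, a relative of Ccl2, had 5.30 CPM in fibroblast wells and 1 UMI in a DC1 well. Cxcl10, a chemokine induced by interferon, had 6.44 CPM in fibroblast wells and 1, 3 and 1 UMIs in DC0, DC1 and DC2 wells. None of these passed the filter on low counts, so they were not tested, and they were chosen after their values were seen. Ccl19 had 20 UMIs in DC0 wells (10.4 CPM) against 4.82 CPM in fibroblast wells, 2.08 in DC1 and 3.43 in DC2. Cxcr2 stood at 21.7 CPM in fibroblast wells and at 58.7, 32.2 and 66.8 CPM in DC0, DC1 and DC2 wells of all libraries summed. For Cxcl5, Ccl7, Cxcl10, Ccl19 and Cxcr2 alike these sums mix population with library. Most DC0 and DC2 wells are from library 8 and most DC1 wells from library 9, and neither library holds fibroblast wells. Within libraries, the change of Cxcr2 in condensate cells did not pass the test (0.46, edgeR adjusted p = 0.329).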
